A study of Mus with 10 samples.

Results

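The 9 genes described here were Egr1, Egr2, Egr3, Nr4a1, Nr4a2, Nr4a3, Ier2, Ier3 and Ier5, the EGR, NR4A and IER members of the early response programme, chosen by name from 24564 genes in the count table. All 9 passed the filter on low counts, as did 11463 genes in all. RNA was sequenced from type 1 innate lymphoid cells (ILC1s) that had been sorted from the livers of C57BL/6 mice 6 to 8 weeks old, male or female, with 5 libraries from Ncr1+/+ mice and 5 from Ncr1gfp/gfp mice. In Ncr1gfp/gfp mice a gfp cassette takes the place of Ncr1, the gene for the activating receptor NKp46, so the gene is disrupted and its cells carry GFP. The Ncr1+/+ cells were gated with an antibody to NKp46 and the Ncr1gfp/gfp cells by their GFP. Hence the genotype, the gate and the antibody cannot be told apart. The study lists its staining antibody to NKp46 under the same clone as the antibody it used to stimulate ILC1s. Beyond staining for the sort, no agent was given to either group. The study's captions speak of RNA pools, without saying how many mice went into a library. The p-values therefore measure the spread between these libraries, which may be technical in part. The question was whether these transcripts differed between the genotypes in freshly sorted liver ILC1s.

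Early response genes are switched on within minutes of a signal without the need for new protein. Receptor signals that run through ERK, calcium and calcineurin act on factors already bound at their promoters, such as SRF with its ternary complex factors, CREB and MEF2. EGR proteins are zinc finger transcription factors, NR4A proteins are orphan nuclear receptors that bind DNA without a known ligand, and IER proteins are small proteins with diverse roles. In lymphocytes these genes are read as a trace of recent antigen or activating receptor signals, and they are also known to rise while tissue is dissociated and cells are sorted.

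Library totals ran from 15796253 to 22623133 counts, and a floor of 3 counts corresponded to between 0.132 and 0.190 CPM (counts scaled to library size), for counting error only. Ncr1 itself was at 2029 ± 99.97 CPM in Ncr1+/+ and 259 ± 97.5 CPM in Ncr1gfp/gfp libraries (SD, n = 5 each), which is 12.8% of the Ncr1+/+ mean, in the direction of the labels. Summed ILC1 markers, Ncr1 included, spanned 6552 to 6935 CPM in Ncr1+/+ and 4769 to 5065 CPM in Ncr1gfp/gfp libraries. Of 11 tested, 4 were called lower (Il7r, Ncr1, Tmem176a and Tmem176b). Itga1 was higher but not called (log2 fold change 0.32, edgeR adjusted p = 0.000481). Without Ncr1 the sums of the list overlapped, at 4616 to 4853 CPM and 4482 to 4780 CPM. Summed natural killer cell markers spanned 441 to 481 CPM and 482 to 550 CPM, with Klra4 at 0 counts in every library. Prf1 (343 and 344 CPM on average) made up most of this sum, and Itgam averaged 49.4 and 96.0 CPM. Of 8 tested natural killer cell markers, 2 had a lower estimate, Ly6c2 (log2 fold change -0.77) and S1pr5 (-0.30). Summed T cell markers spanned 545 to 664 CPM in Ncr1+/+ and 712 to 927 CPM in Ncr1gfp/gfp libraries, without overlap. Most of this sum was Cd3g (501 and 687 CPM on average) and Lat (85.1 and 85.7 CPM). Cd3e, a subunit of the T cell receptor complex, ranged from 2.80 to 6.85 CPM and from 9.05 to 38.8 CPM. Of these lists, Cd3e, Cd8a and the natural killer cell marker Itgam were called higher. Summed hepatocyte markers spanned 136 to 185 CPM and 124 to 230 CPM, and the library highest in each group was Ncr1+/+ 1 and Ncr1gfp/gfp 3. B cell markers summed to 3.64 to 10.4 CPM and 6.67 to 9.46 CPM, and myeloid markers to 17.4 to 83.4 CPM and 12.5 to 59.7 CPM. Endothelial and stellate markers summed to 113 to 150 CPM and 131 to 154 CPM. Trf (138 and 135 CPM on average) made up most of the hepatocyte sum, and Pecam1 (130 and 138 CPM) most of the endothelial and stellate sum. The part these lists play in the results that follow was not tested.

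The NR4A genes had the lowest fold changes in Ncr1gfp/gfp relative to Ncr1+/+ ILC1s, the EGR genes lay between no difference and a modest one, and the IER genes went both ways. On the log2 scale the median fold change was -0.89 for the 3 NR4A genes, -0.31 for the 3 EGR genes and -0.16 for the 3 IER genes. Of the 9 genes, 8 had a lower estimate in Ncr1gfp/gfp libraries and 1, Ier3, a higher one, with a median log2 fold change of -0.31, where the median of all tested genes was 0.00 and 49.3% of them were lower. In edgeR's quasi-likelihood test calls needed a Benjamini-Hochberg adjusted p under 0.05 together with a fold above 1.5 or below 0.7. None of the 9 was called (0 of 9), where 84 of 11463 genes were (0.733%), 61 lower (0.532%) and 23 higher (0.201%). Without Ncr1+/+ 1, 40 genes were called lower and 20 higher. DESeq2 and the edgeR likelihood ratio test each called 1 of the 9, Nr4a2, and limma-voom called 1, Nr4a1. With no limit on the fold change, 1 of the 9 had an adjusted p under 0.05, Nr4a3, against 1.35% of all tested genes, 0.785% lower and 0.567% higher. At an unadjusted p under 0.05 in edgeR stood 6 of the 9, or 66.7%, against 11.4% of all tested genes. These 6 include Ier3, which was higher. A two-sided exact permutation test over libraries gave them p = 0.00794 (Nr4a3), 0.0317 (Ier5), 0.0476 (Nr4a2), 0.0635 (Nr4a1), 0.0714 (Ier3) and 0.103 (Egr3). The 9 were chosen with earlier results of these data known, so these shares are a description. In bulk RNA, fewer cells of a type that express a gene and less RNA per cell cannot be told apart.

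**Figure D1:**
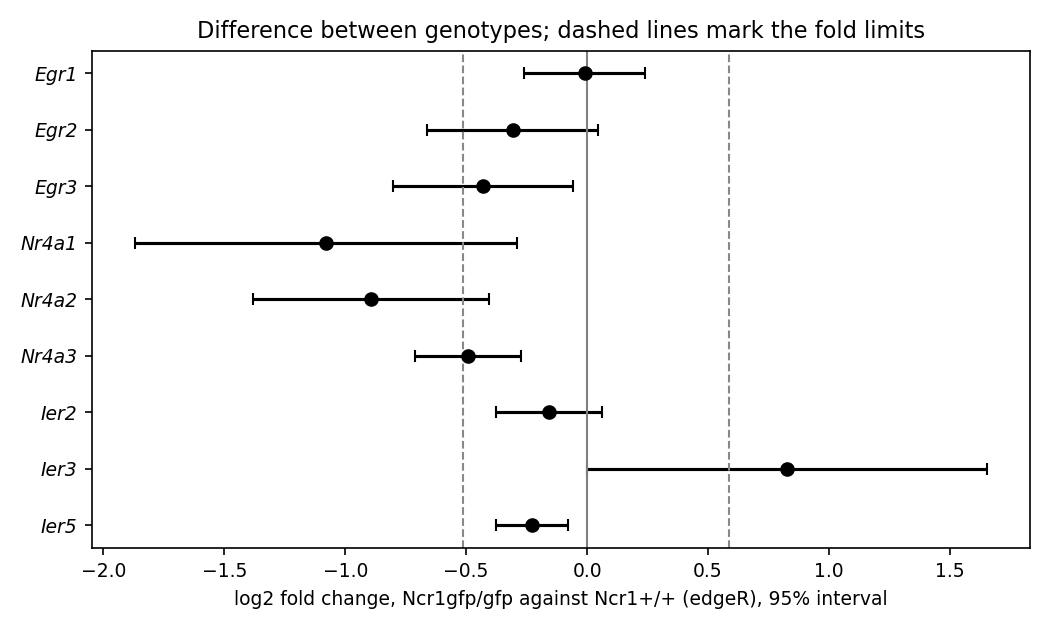
Log2 fold change of each gene in Ncr1gfp/gfp against Ncr1+/+ ILC1s (x axis) with its 95% interval from edgeR, 5 libraries per genotype; dashed lines mark the fold limits of 0.7 and 1.5. Nr4a1 has the lowest estimate and a wide interval, Nr4a3 a smaller difference and a narrow interval, and Egr1 lies at 0.

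Nr4a3, which encodes the nuclear receptor NOR1, was the one member with no overlap between genotypes. Its level in Ncr1+/+ libraries 1 to 5 was 66.4, 49.98, 47.7, 65.6 and 62.6 CPM (58.5 ± 8.92, SD, n = 5). In Ncr1gfp/gfp libraries 1 to 5 it was 43.1, 39.5, 47.3, 42.2 and 35.8 CPM (41.6 ± 4.28, SD, n = 5). The gap was narrow, with Ncr1+/+ 3 at 47.7 CPM just above Ncr1gfp/gfp 3 at 47.3 CPM. The log2 fold change was -0.49 (SE 0.11, 95% interval -0.71 to -0.27, edgeR adjusted p = 0.0175), a fold of 0.712 that lies just short of the limit of 0.7. A two-sided exact permutation test over libraries gave p = 0.00794, the smallest that 5 against 5 allows, and of all tested genes 1.82% were lower without overlap and 1.28% higher. The adjusted p rose to 0.05 or more when any of 4 libraries was left out: 0.0596 without Ncr1+/+ 1, 0.0644 without Ncr1+/+ 4, 0.0501 without Ncr1+/+ 5 and 0.0528 without Ncr1gfp/gfp 5. Without Ncr1+/+ 2, Ncr1+/+ 3 or Ncr1gfp/gfp 3 it also passed the fold limit, at log2 fold changes of -0.54, -0.56 and -0.54.

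Nr4a1 encodes NUR77, whose expression is widely used as a reporter of antigen receptor signalling. Its level in Ncr1+/+ libraries 1 to 5 was 33.6, 37.7, 40.7, 80.8 and 26.4 CPM (43.8 ± 21.3, SD, n = 5). In Ncr1gfp/gfp libraries 1 to 5 it was 12.0, 8.50, 22.5, 52.3 and 8.69 CPM (20.8 ± 18.5, SD, n = 5). Library 4 was the highest in both groups, and 4 of the 5 Ncr1gfp/gfp libraries lay below every Ncr1+/+ library. The highest Ncr1gfp/gfp library was 6.16 times the lowest. Its log2 fold change was -1.08 (SE 0.38, 95% interval -1.87 to -0.29), with an adjusted p of 0.215 in edgeR and an exact permutation p of 0.0635. Single libraries decided this value: without Ncr1gfp/gfp 4 the log2 fold change was -1.76 (edgeR adjusted p = 0.00299), and without Ncr1+/+ 4 it was -0.74 (adjusted p = 0.562).

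Nr4a2, the gene for NURR1, had the lowest level per kilobase of the 3 NR4A genes. Its level in Ncr1+/+ libraries 1 to 5 was 13.2, 22.9, 16.9, 27.3 and 10.3 CPM (18.1 ± 6.96, SD, n = 5). In Ncr1gfp/gfp libraries 1 to 5 it was 10.7, 7.40, 11.4, 13.0 and 6.43 CPM (9.78 ± 2.76, SD, n = 5). The groups overlapped through Ncr1+/+ 5, and library 4 was again the highest of each genotype. On the log2 scale the difference was -0.89 (SE 0.23, 95% interval -1.38 to -0.41, edgeR adjusted p = 0.0640), and the exact permutation p was 0.0476. It was called without Ncr1+/+ 5, at a log2 fold change of -1.04 (edgeR adjusted p = 0.0147).

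**Figure D2:**
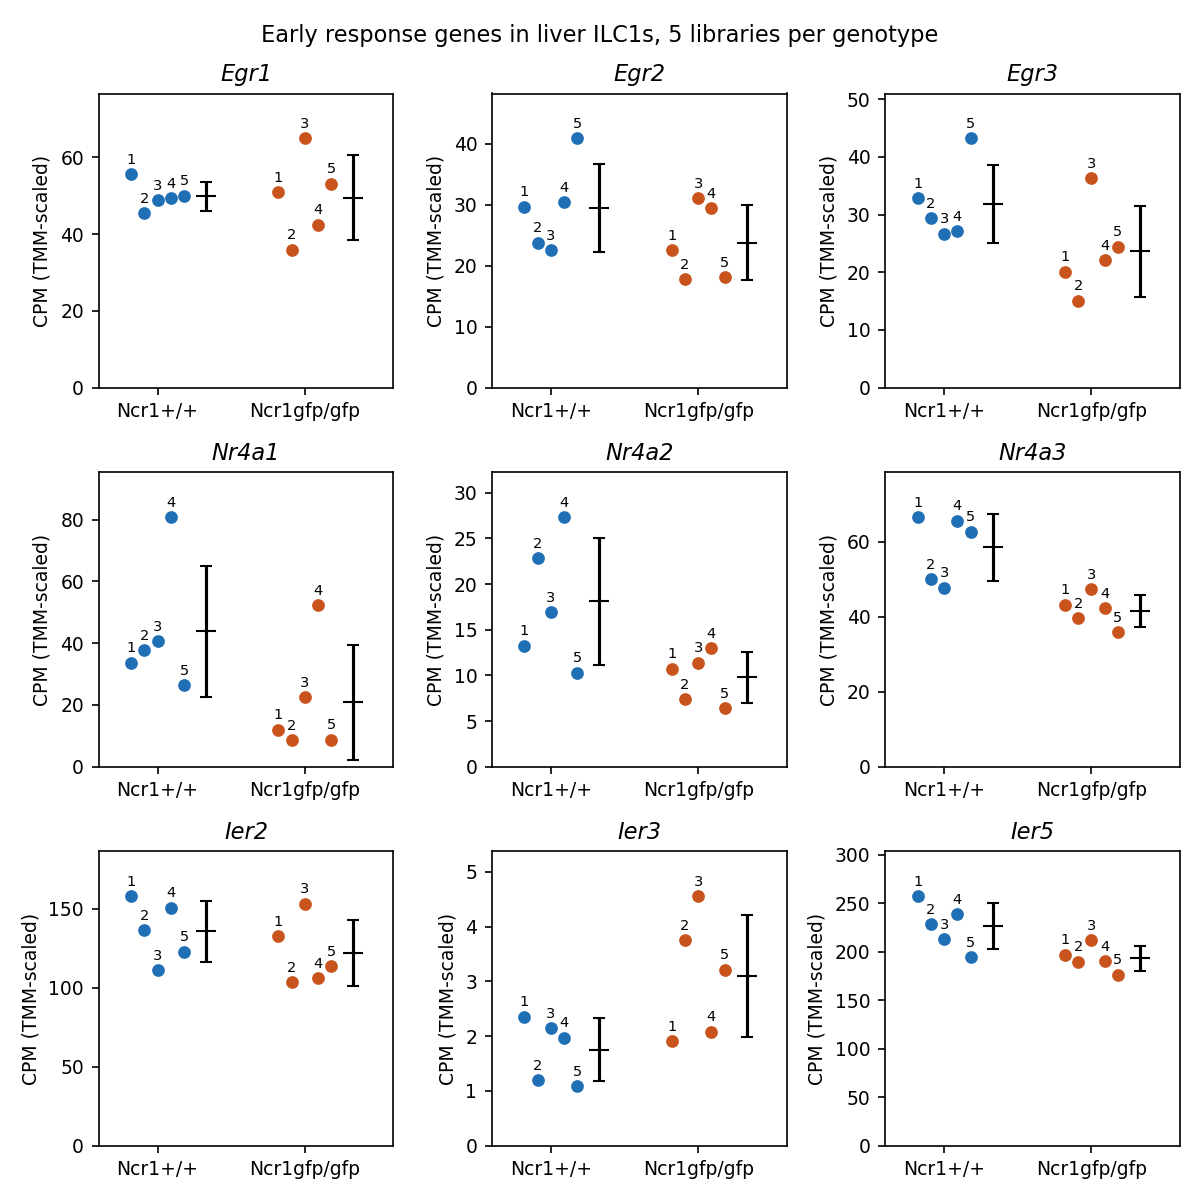
TMM-scaled CPM (y axes, each from 0) of the 9 genes in the 5 libraries of each genotype (numbered points), with the mean and SD as black bars. Only the Nr4a3 libraries are separated by genotype, Nr4a1 and Nr4a2 peak in library 4 of each genotype, and library 3 is the highest Ncr1gfp/gfp library for all genes but Nr4a1 and Nr4a2.

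Egr1, a zinc finger factor induced by growth factor and antigen receptor signals, had nearly the same mean in both genotypes. Its level was 55.6, 45.4, 48.8, 49.3 and 50.1 CPM in Ncr1+/+ libraries 1 to 5 (49.8 ± 3.69, SD, n = 5). It was 50.9, 36.0, 65.0, 42.4 and 53.2 CPM in Ncr1gfp/gfp libraries 1 to 5 (49.5 ± 11.0, SD, n = 5). All 5 Ncr1+/+ values lay between the lowest and highest Ncr1gfp/gfp values. The log2 fold change was -0.01 with a 95% interval from -0.26 to 0.24 (edgeR adjusted p = 0.987, exact permutation p = 0.833), so changes beyond those bounds lie outside the interval and smaller ones do not.

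Egr2 and Egr3, which restrain activation in T cells among other roles, had lower means in Ncr1gfp/gfp ILC1s, with overlapping libraries. Egr2 was at 29.7, 23.8, 22.5, 30.5 and 40.9 CPM in Ncr1+/+ libraries 1 to 5 and at 22.6, 17.8, 31.1, 29.4 and 18.1 CPM in Ncr1gfp/gfp libraries 1 to 5. Its log2 fold change was -0.31 (SE 0.17, 95% interval -0.66 to 0.05, edgeR adjusted p = 0.526), which does not exceed the spread between libraries. Egr3 was at 32.8, 29.4, 26.7, 27.1 and 43.2 CPM in Ncr1+/+ libraries and at 20.1, 15.1, 36.3, 22.1 and 24.5 CPM in Ncr1gfp/gfp libraries. All Egr3 values in Ncr1gfp/gfp libraries but that of library 3 lay below the Ncr1+/+ range. The log2 fold change of Egr3 was -0.43 (SE 0.18, 95% interval -0.80 to -0.06, edgeR adjusted p = 0.331) and its exact permutation p was 0.103. Without Ncr1gfp/gfp 3 it was -0.64, with an adjusted p of 0.0523. The remaining EGR gene, Egr4, was not tested: it had 5 counts in Ncr1gfp/gfp 3 and 0 in every other library.

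The ratio of Nr4a3 to Egr1 was compared within each library after their values had been seen. The log2 ratio was 0.22 ± 0.17 in Ncr1+/+ and -0.23 ± 0.30 in Ncr1gfp/gfp libraries (SD, n = 5 each). No test is given, because the 2 genes were picked for their difference. The groups overlapped, since the highest Ncr1gfp/gfp ratio was 0.136 and the lowest Ncr1+/+ ratio was -0.03.

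Ier5, a regulator of heat shock factor activity, and Ier2, a nuclear protein, had the highest levels per kilobase of the 9 genes. Ier5 was at 257, 228, 213, 238 and 194 CPM in Ncr1+/+ libraries 1 to 5 and at 197, 190, 212, 190 and 176 CPM in Ncr1gfp/gfp libraries 1 to 5. Its means were 226 ± 23.9 and 193 ± 12.9 CPM (SD, n = 5 each). The difference was small and its interval narrow, at a log2 fold change of -0.23 (SE 0.07, 95% interval -0.38 to -0.08, edgeR adjusted p = 0.138, exact permutation p = 0.0317). The groups overlapped, because Ncr1+/+ 5 lay below Ncr1gfp/gfp 1 and 3. Ier2 was at 136 ± 19.3 and 122 ± 20.9 CPM (SD, n = 5 each), with ranges of 111 to 158 CPM in Ncr1+/+ and 104 to 153 CPM in Ncr1gfp/gfp libraries. Its log2 fold change of -0.16 (95% interval -0.38 to 0.06, edgeR adjusted p = 0.639) was within the spread between libraries.

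Ier3, an inhibitor of apoptosis and a target of NF-κB, was the one gene with a higher mean in Ncr1gfp/gfp ILC1s. It was rare, at 20 to 86 counts per library. Its level was 2.35, 1.19, 2.15, 1.97 and 1.09 CPM in Ncr1+/+ libraries 1 to 5 and 1.90, 3.75, 4.55, 2.08 and 3.21 CPM in Ncr1gfp/gfp libraries 1 to 5. Ncr1gfp/gfp 2, 3 and 5 were above all Ncr1+/+ libraries and Ncr1gfp/gfp 1 and 4 were within their range. The log2 fold change was 0.83 (SE 0.40, 95% interval 0.00 to 1.65, edgeR adjusted p = 0.439), and the exact permutation p was 0.0714.

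Per kilobase of exon, the levels in Ncr1+/+ ILC1s were highest for the IER genes Ier2 and Ier5 and lowest for Ier3. Ier2 at 89.2 ± 12.7 and Ier5 at 69.2 ± 7.31 CPM per kilobase (SD, n = 5 each) overlapped each other and lay above all others. Nr4a1 at 17.7 ± 8.61 and Egr1 at 16.2 ± 1.20 overlapped each other. Egr1 lay above all libraries of Nr4a3, whereas Nr4a1, from 10.7 to 32.6, overlapped Nr4a3, Egr2 and Egr3. Nr4a3 at 10.4 ± 1.59, Egr2 at 9.95 ± 2.46, Egr3 at 7.95 ± 1.70 and Nr4a2 at 5.41 ± 2.08 each overlapped the next. Ier3 was the lowest, at 1.61 ± 0.528 CPM per kilobase, with no overlap with Nr4a2. In Ncr1gfp/gfp ILC1s, on the same scale, the order of the means differed in that Egr1 (16.1) stood above Nr4a1 (8.40) and Egr2 (8.03) above Nr4a3 (7.43). The Ncr1gfp/gfp libraries overlapped in each of these pairs, so the order is not separated.

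The genes were on 9 different chromosomes, and no other gene in the table overlapped any of them. By the coordinates of the count table, which names no genome build, Nr4a1 was at chromosome 15, 101097277 to 101105225 on the plus strand. Nr4a2 was at chromosome 2, 56959637 to 56976414 on the minus strand, and Nr4a3 at chromosome 4, 48058177 to 48099318 on the plus strand. All 9 symbols were in the RefSeq mouse gene table, but 0 of 9 had the same start there, so no sequence or annotation was taken by position. Compactness was a shared feature: 8 of the 9 were narrower than the median tested gene of 20510 bases, the exception being Nr4a3 with 41142 bases. Ier2 (1522 bases) and Ier5 (3270 bases) had an exon length equal to their width, as genes with 1 exon have.

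The libraries of one genotype differed from each other more in these genes than in most. The pooled SD of log2 CPM within a genotype was above the median of all tested genes, 0.186, for 8 of the 9, the exception being Ier5. Nr4a1 stood at percentile 93.2 of all tested genes, Nr4a2 at 84.4, Ier3 at 84.3, Egr3 at 78.2 and Egr2 at 76.6. Egr1 (62.6), Ier2 (59.3) and Nr4a3 (51.6) were nearer the middle and Ier5 (28.2) below it. Spread is larger at low counts, so the biological coefficient of variation was also set against edgeR's trend for genes of the same abundance. It was above the trend for 8 of the 9, the exception being Ier3 at 38.7% against 43.4%, with 41.1% against 12.9% for Nr4a1, 25.4% against 18.0% for Nr4a2 and 19.7% against 13.6% for Egr3. The values were close for Nr4a3 (11.8% and 11.0%) and for Ier5 (8.50% and 8.35%). No share of all tested genes above the trend is given, so the count of 8 is a description.

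**Figure D3:**
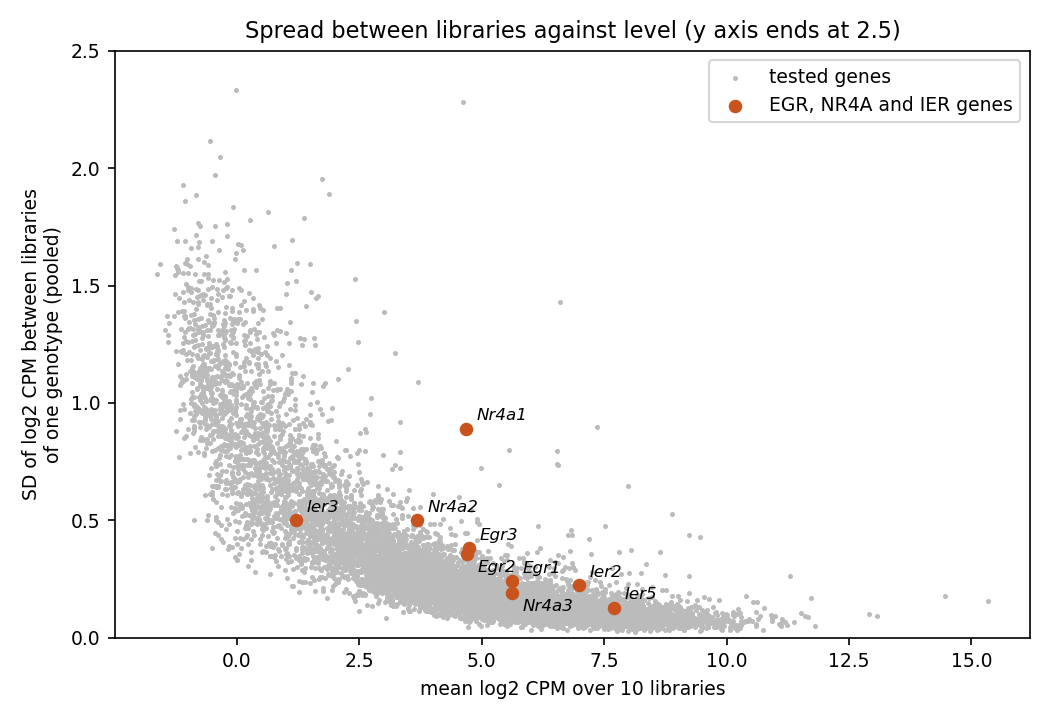
Pooled SD of log2 CPM between libraries of one genotype (y axis) against mean log2 CPM over 10 libraries (x axis) for the tested genes (grey) and the 9 genes (orange). Nr4a1 lies well above genes of its level, Nr4a2, Egr2 and Egr3 in the upper part of the cloud and Ier5 within it.

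Deviations from the genotype mean showed which libraries set this spread. Ncr1gfp/gfp 3 was above the Ncr1gfp/gfp mean for 9 of 9 genes, by 0.40 on average on the log2 scale, and Ncr1gfp/gfp 2 for 1 of 9, with an average of -0.29. Ncr1+/+ 4 had the highest average among Ncr1+/+ libraries, 0.24, which rested on Nr4a1 at 0.99 and Nr4a2 at 0.68. Ncr1gfp/gfp 4 was at 1.70 for Nr4a1 and 0.45 for Nr4a2 but at -0.19 for Egr1. Ncr1+/+ 5 was high for Egr2 (0.50) and Egr3 (0.46) and low for Nr4a1 (-0.62) and Nr4a2 (-0.72). Ncr1gfp/gfp 3 was also the library with the most hepatocyte marker RNA (230 CPM summed) and the most Cd3e (38.8 CPM). Summed T cell markers were highest in Ncr1gfp/gfp 2 instead (927 CPM, against 909 CPM in Ncr1gfp/gfp 3). The part of these markers in the levels of Ncr1gfp/gfp 3 was not tested. Without this library and Ncr1+/+ 1 together, a choice made after seeing the data, the log2 fold changes were -0.49 for Nr4a3 (edgeR adjusted p = 0.0440), -1.05 for Nr4a2 (0.0692) and -1.20 for Nr4a1 (0.284), with 0 of 9 called.

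**Figure D4:**
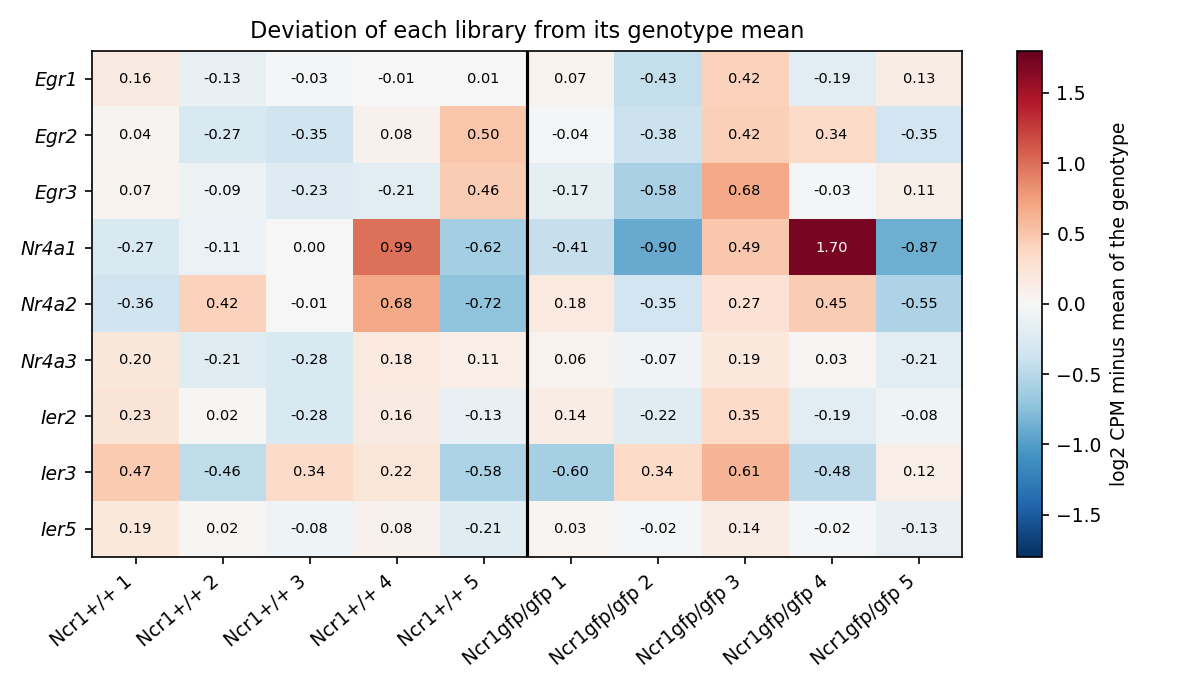
Log2 CPM minus the genotype mean (colour and number) for each gene (rows) in each library (columns), with a line between the genotypes. The column of Ncr1gfp/gfp 3 is above 0 throughout, and the Nr4a1 and Nr4a2 rows share their highest columns, library 4 of each genotype.

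Across the 10 libraries, with genotype means removed, 31 of the 36 pairs of genes had a positive Pearson correlation (median r 0.33), and 0 of 36 had a Benjamini-Hochberg adjusted permutation p under 0.05. Nr4a1 and Nr4a2 had r = 0.78 (exact permutation p = 0.00361, adjusted p = 0.130) and Spearman's rho = 0.81 (exact permutation p = 0.0025, adjusted p = 0.09). Leaving out the farthest libraries, library 4 of each genotype, gave r = 0.71. Egr1 and Egr3 had r = 0.79 (exact permutation p = 0.0287, adjusted p = 0.172) and rho = 0.70 (exact permutation p = 0.0513, adjusted p = 0.231). This relation rested on Ncr1gfp/gfp 2 and 3, without which r was 0.23. By the same deviations, the gene most like the mean of the 9 among 11454 other tested genes was Csrnp1, a nuclear protein of the early response class, with r = 0.95 over 10 libraries, followed by Plekhm2 (0.94), Pcgf3 (0.91), Spg7 (0.89) and Dnajc30 (0.88). Csrnp1 was at 45.2 to 56.9 CPM in Ncr1+/+ and 32.4 to 47.4 CPM in Ncr1gfp/gfp libraries, a log2 fold change of -0.40 (edgeR adjusted p = 0.0701). These r values are the highest of many and are given as a description.

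Among other early response genes most estimates were lower in Ncr1gfp/gfp ILC1s, and all that passed the test were lower. Of 64 listed, 60 were tested and 50 of these had a lower estimate, where 49.3% of all tested genes did. The median log2 fold change of the 60 was -0.32. In edgeR, 4 of 60 were called, all lower (background 0.532%), 9 had an adjusted p under 0.05, all lower (background 0.785%), and 7 were lower without overlap (background 1.82%). At an unadjusted p under 0.05 stood 30 of 60, against 11.4% of all tested genes. The list was chosen with earlier results of these data known, so its shares above background are a description and no independent support. Kdm6b, a histone H3K27 demethylase gene, fell from 138 ± 16.0 to 89.3 ± 7.08 CPM (SD, n = 5 each; log2 fold change -0.63, edgeR adjusted p = 0.00015). Socs3, the feedback inhibitor of cytokine receptor signalling, fell from 28.8 ± 4.51 to 16.9 ± 3.10 CPM (log2 fold change -0.76, edgeR adjusted p = 0.00404). Both were called under each of 18 alternative fits.

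Zfp36, which promotes decay of cytokine mRNAs, had a log2 fold change of -0.58 (edgeR adjusted p = 0.0179) and was not called with DESeq2, with limma-voom, without Ncr1+/+ 1 (log2 fold change -0.42, short of the fold limit) or without Ncr1gfp/gfp 3 (adjusted p = 0.0540). Fos, a subunit of AP-1, fell furthest, from 155 ± 83.4 to 67.2 ± 25.3 CPM (SD, n = 5 each; log2 fold change -1.21, edgeR adjusted p = 0.0377), with the least stable call. Fos was at 243, 240, 117, 122 and 54.1 CPM in Ncr1+/+ libraries 1 to 5 and at 42.6, 66.1, 45.8, 105 and 77.2 CPM in Ncr1gfp/gfp libraries 1 to 5. Ncr1+/+ 5 lay within the Ncr1gfp/gfp range, and the call was lost with DESeq2 (adjusted p = 0.105), with limma-voom (0.173) and without any one of Ncr1+/+ 1, 2 or 4 or Ncr1gfp/gfp 1, 2, 3 or 5. The 5 others with an adjusted p under 0.05 were Junb (-0.46), Nfkbiz (-0.47), Gadd45b (-0.51), Sik1 (-0.44) and Pim1 (-0.37), given as log2 fold changes, of which Junb overlapped between genotypes and lost its adjusted p with DESeq2, with limma-voom and without any one of Ncr1+/+ 1, 2 or 4 or Ncr1gfp/gfp 2, 3, 4 or 5. Gadd45b lost it without Ncr1+/+ 3 or 4. Btg1 (-0.02) and Rgs1 (0.06), among the highest of the list by CPM, had differences within the spread between libraries. Ncr1+/+ 5 had the lowest summed level of the list, 7984 CPM, below all Ncr1gfp/gfp libraries (8156 to 9169 CPM), and without it 14 of the list were called. Without Ncr1+/+ 1, which had the highest sum at 12260 CPM, 2 were called.

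Regulators and partners of the 9 genes had medians close to that of all tested genes. Of the 22 tested regulators that act on early response promoters (SRF and its cofactors, CREB, NFAT, MEF2, ERK and calcineurin), 8 had a lower estimate, the median log2 fold change was 0.01, 1 had an unadjusted p under 0.05, and edgeR, DESeq2, the likelihood ratio test and limma-voom each called 0. Nfatc1, with the highest CPM among them, was at 595 and 578 CPM on average in Ncr1+/+ and Ncr1gfp/gfp libraries. Of 7 partners of the member proteins, which include the EGR corepressors NAB and the nuclear receptor corepressor Ncor1 (802 and 803 CPM), 4 were lower, the median was -0.01, 0 had an unadjusted p under 0.05 and the 4 tools called 0. Of 15 tested genes named as EGR or NR4A targets in lymphocytes, 10 were lower, the median was -0.10, 3 had an unadjusted p under 0.05 and the 4 tools called 0. Cblb, an E3 ligase that dampens lymphocyte activation and the highest of these by CPM, was at 362 and 336 CPM. Of the family relatives, Ier5l and Ier3ip1 were tested, both estimates were lower, and neither had an unadjusted p under 0.05 nor was called by any of the 4 tools.

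Heat shock genes, which rise with cell handling, were also examined. Of 13 tested, 12 had a lower estimate, with a median log2 fold change of -0.22, 1 had an unadjusted p under 0.05 and the 4 tools called 0. Their summed level was 2439 to 3561 CPM in Ncr1+/+ and 2074 to 3426 CPM in Ncr1gfp/gfp libraries, so the groups overlapped. Their part in the levels of the 9 genes was not tested.

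**Figure D5:**
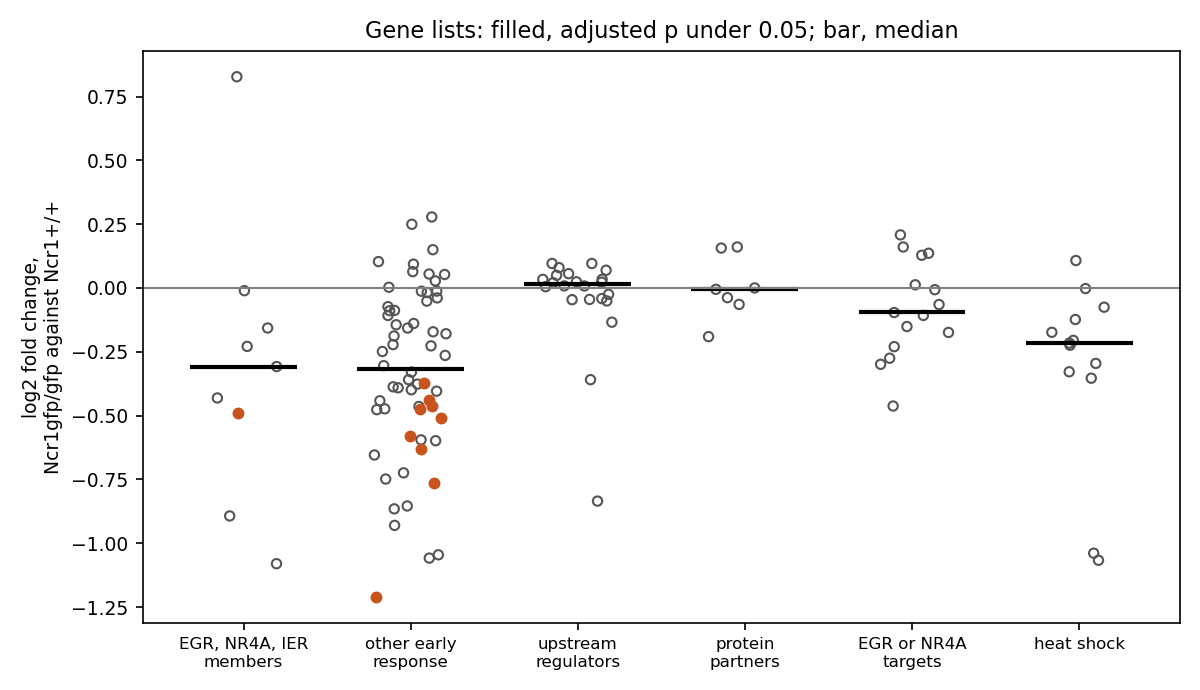
Log2 fold change in Ncr1gfp/gfp against Ncr1+/+ ILC1s (y axis) of each tested gene of the 9 and of 5 lists (x axis), where filled points have an adjusted p under 0.05 and bars are medians. The 9 genes (median -0.31) and the other early response genes (-0.32) lie lower than the regulators (0.01) and the partners (-0.01). The heat shock genes (-0.22) and the EGR or NR4A targets (-0.10) lie in between, with no test between lists.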

How the data were processed

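The authors sorted liver ILC1s to a purity over 90%, amplified 2 ng of RNA with SMART-Seq v4, sequenced single reads of 51 cycles, trimmed them with Trimmomatic and FASTP, mapped them by STAR (020201) and obtained gene counts from HTSeq (0.6.0, default settings). The deposited table holds raw counts for 10 libraries. Counts were filtered with filterByExpr, scaled by TMM and tested with edgeR 4.0.16 (quasi-likelihood, R 4.3.3). CPM values are TMM-scaled, and log2 CPM used a prior count of 2. Permutation tests were two-sided and exact. Alternatives used DESeq2 1.42.0, limma 3.58.1, other scaling and filters, a replicate block and omission of each library. Replicates of a genotype differed by more than sampling noise. The members and gene lists were chosen with earlier results of these data known. Genes named were the members, Ncr1, list genes with an adjusted p under 0.05 or among the 3 most abundant of a list, and the 5 most alike genes. Crem and Nab2 each stand in 2 lists.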

Additional observations from a re-analysis of the deposited data

Results flagged for a closer look

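In 48 groups of 5 libraries examined, 3 held 1 library far from the other 4 (its distance to the closest one, as a share of the whole range, was above 0.71), where chance gives about 2.4. Nr4a1 was at 80.8 CPM in Ncr1+/+ 4, against 40.7 CPM in the nearest library. The mean log2 CPM of the family relatives was 1.21 in Ncr1gfp/gfp 4, against 1.88 in the nearest library. The mean log2 CPM of the hepatocyte markers was 4.16 in Ncr1+/+ 1, against 2.36 in the nearest library. The cause was not tested for any of them.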

How the results depend on the processing

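Over all genes, 84 were called, against 128 with DESeq2, 138 with the likelihood ratio test, 131 with no filter on low counts, 155 with adjusted p alone and 23 with an absolute log2 fold change above 1. The split of 23 higher and 61 lower was 39 and 89 with DESeq2, 40 and 98 with the likelihood ratio test and 36 and 95 with no filter. Without 1 library, 60 to 98 genes were called. Of the 84, 77 were called by DESeq2 too and 67 by limma-voom. None of the 9 genes was called in the main edgeR test (0), against 1 with DESeq2 (Nr4a2), 1 with the likelihood ratio test (Nr4a2), 1 with limma-voom (Nr4a1), 2 with no filter (Nr4a1 and Nr4a2), 1 with at least 10 counts in every library (Nr4a2), 1 with adjusted p alone (Nr4a3), and 0 to 1 without 1 library. Of the other early response genes, 4 were called, against 2 with DESeq2, 7 with the likelihood ratio test, 2 with limma-voom, 8 with no filter, 9 with adjusted p alone, 1 with an absolute log2 fold change above 1, and 2 to 14 without 1 library. The log2 fold change of Egr1 was 0.036 with limma-voom and ranged from -0.13 to 0.087 without 1 library. The number of the 9 genes with a lower estimate was 7 or 8 in all 18 alternative fits. The causes of these changes were not tested.

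Over all tested genes, no pairing by replicate number was seen. Same-numbered libraries had correlations of -0.02 to 0.04, and 1 of 10 correlated best with its own number. Correlations over all genes cannot show whether a small set of genes was paired. With the replicate number as a block, Fos was not called (edgeR adjusted p = 0.0966), and 87 genes were called, 2 of the 9 among them (Nr4a1, log2 fold change -1.31, edgeR adjusted p = 0.000941, and Nr4a2, -0.86, adjusted p = 0.0246).

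Counts limit Ier3 most, at 20 to 86 per library.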
